A study of Mus musculus with 2 samples.

Results

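The mitosis genes described here are 48 genes, chosen by a fixed list of symbols, out of the 32285 genes that were counted in GL261 cells. GL261 is a mouse glioma cell line from the C57BL/6 strain that the labels call an astrocytoma. Adherent cells were grown on culture flasks in DMEM with serum. Neurosphere cells were grown as free-floating aggregates for 12 days in the same serum medium with EGF at 20 ng/ml, FGF at 20 ng/ml and B-27 at a dilution of 1:50. Adherent cells were taken off the flasks with trypsin. Neurospheres were spun down, by the labels held in trypsin, and broken up with ever smaller pipette tips, so that the cultures were dissociated in different ways. Both were frozen in medium with DMSO before scRNA-Seq, and the labels name no transgene or deletion in either. Each culture gave 1 library, so that the cultures were compared without replicates, no test was possible, and a difference between the libraries cannot be told apart from a difference between 2 preparations.

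After the cell filter, 5051 adherent cells and 4276 neurosphere cells were left, with a median of 8260 and 13198.5 UMIs per cell. A UMI (unique molecular identifier) marks 1 captured mRNA molecule. All 48 genes were detected in both libraries and all had at least 50 UMIs over both. The genes left for the comparison numbered 32171, of which 14654 had at least 50 UMIs. The labelled cell type was checked against 8 astrocyte and glioma markers, which summed to 6431 CPM (UMIs of a gene per 1000000 UMIs of the library) in adherent against 2485 CPM in neurosphere cells. Most of that sum was Vim, at 5583 and 1763 CPM. Slc1a3, at 370 and 80.5 CPM, and Sox2, at 209 and 180 CPM, were also higher in adherent cells, while S100b (161 and 255 CPM), Nes (104 and 201 CPM) and Aldh1l1 (3.63 and 5.39 CPM) were higher in neurosphere cells. Of the defining markers of mature astrocytes, Aqp4 was at 0 UMIs in both libraries and Gfap at 0.648 and 0.416 CPM. The 8 immune markers summed to 12.9 and 6.07 CPM with Tyrobp at 0 in both, and the 4 endothelial markers to 1.34 and 3.23 CPM with Cdh5 at 0 in both. The 4 fibroblast and pericyte markers summed to 0.734 CPM in adherent against 57.9 CPM in neurosphere cells, nearly all of it Dcn at 0.0216 and 55.5 CPM, and the part of this in the results was not tested.

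Mitosis is driven by Cdk1 bound to a cyclin, which is switched on at the end of G2 and switched off when the anaphase-promoting complex (APC/C) marks cyclin B for destruction. In between, kinetochores attach chromosomes to the spindle, the spindle checkpoint holds the APC/C back until every chromosome is attached, and motor proteins and the contractile ring then pull the cell apart. The mRNAs of these proteins accumulate in G2 and mitosis and are low in G1, which is why they serve as a common marker of dividing cells in tumours. Many of their promoters are known to be bound by NF-Y at CCAAT boxes, and by complexes that contain MuvB, such as DREAM, at a CHR element whose most frequent form is TTTGAA.

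The promoters of these genes shared letters that the list did not use. RefSeq promoters on GRCm38.p6, each 300 bases long from 250 bases before the start to 50 bases after it, were matched for 43 of the 48 genes, which gave 47 promoters. Those of Ccna2, Aurkb, Kif20a, Tpx2 and Depdc1b were not matched. TTTGAA on either strand was in 33 of 47 promoters (70.2%), against 17.9% of all 32851 promoters. CCAAT on either strand was in 37 of 47 (78.7%), against 37.4% of all promoters and 62.1% of 29 promoters of S-phase genes. CCAAT and TTTGAA, which can share 1 base where they adjoin, occurred together in 30 of 47 promoters (63.8%), against 6.95% of all. The CHR form TTCGAA was in 3 of 47 (6.38%), against 1.56% of all. The E2F motif GGCGGGAA, searched on both strands like the others, was in 0 of 47, against 2.19% of all promoters and 13.8% of the promoters of S-phase genes, in which TTTGAA was in 10.3%. In 97 promoters of other mitosis genes, TTTGAA was in 37.1%, CCAAT in 57.7%, both in 23.7%, TTCGAA in 9.28% and GGCGGGAA in 8.25%. The 93 CCAAT matches lay at a median of 71 bases before the start, with 59 of them within 100 bases before it, and the 41 TTTGAA matches lay at a median of 5 bases before it, with 20 of them at or after the start. Where a gene had more than 1 promoter and these overlapped, as for Ect2, Bub3 and Prc1, the same site was counted in each. A match of letters is a description and does not show that a factor binds there.

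Of these promoters, 6 are given here. They are shown as the 200 bases before the start and belong to genes whose levels the results turn on: the highest gene (Ube2c), its partner in mitotic exit with the opposite difference (Cdc20), the central kinase (Cdk1) and 3 of the 4 genes with the largest differences between the cultures. Capitals mark TTTGAA or CCAAT, or their reverse complements TTCAAA and ATTGG. Ube2c (chr2:164769729-164769928), Fam83d (chr2:158767899-158768098) and Cdkn3 (chr14:46760341-46760540) lie on the plus strand. Cdc20 (chr4:118437344-118437543), Cdk1 (chr10:69352913-69353112) and Anln (chr9:22389207-22389406) lie on the minus strand and are written 5′ to 3′ on it.
Ube2c: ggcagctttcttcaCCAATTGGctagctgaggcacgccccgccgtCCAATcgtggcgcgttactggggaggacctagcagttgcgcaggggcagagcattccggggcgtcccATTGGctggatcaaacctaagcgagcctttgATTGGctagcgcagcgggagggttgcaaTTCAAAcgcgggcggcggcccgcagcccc
Cdc20: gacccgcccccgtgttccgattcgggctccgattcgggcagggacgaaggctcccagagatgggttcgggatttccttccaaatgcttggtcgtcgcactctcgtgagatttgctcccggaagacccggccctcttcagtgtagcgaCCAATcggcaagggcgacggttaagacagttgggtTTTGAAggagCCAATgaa
Cdk1: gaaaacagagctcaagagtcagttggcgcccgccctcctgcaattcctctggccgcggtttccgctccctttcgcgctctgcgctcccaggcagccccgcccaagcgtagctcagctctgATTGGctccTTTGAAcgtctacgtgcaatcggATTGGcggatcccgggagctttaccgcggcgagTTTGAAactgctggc
Fam83d: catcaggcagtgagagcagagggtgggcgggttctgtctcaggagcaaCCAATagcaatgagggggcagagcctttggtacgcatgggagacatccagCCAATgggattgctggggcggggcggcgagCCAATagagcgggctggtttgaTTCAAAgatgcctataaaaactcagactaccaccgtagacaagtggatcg
Cdkn3: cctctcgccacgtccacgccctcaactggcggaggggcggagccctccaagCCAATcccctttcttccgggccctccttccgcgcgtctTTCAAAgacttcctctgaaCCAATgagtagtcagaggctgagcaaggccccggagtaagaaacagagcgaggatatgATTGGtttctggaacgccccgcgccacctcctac
Anln: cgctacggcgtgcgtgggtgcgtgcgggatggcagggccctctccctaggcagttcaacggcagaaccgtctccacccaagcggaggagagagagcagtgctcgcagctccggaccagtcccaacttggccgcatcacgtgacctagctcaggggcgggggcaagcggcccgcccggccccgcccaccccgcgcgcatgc
Ube2c, with 5 CCAAT matches and 1 TTTGAA match in this stretch, and Cdc20, with 2 and 1, had the same kinds of match while differing in opposite directions between the cultures. Fam83d and Cdkn3, which differed in opposite directions too, held 3 CCAAT matches and 1 TTTGAA match each. Anln held neither in the stretch shown, and its TTTGAA matches lay 21 and 28 bases after the start.

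With mitochondrial and ribosomal genes left out of the total, the 48 genes together took a somewhat smaller share of the UMIs in neurosphere cells. Their single levels went both ways. They held 324165 of the UMIs in adherent cells, or 7003 CPM (exact Poisson 95% interval 6979 to 7027), against 416251 in neurosphere cells, or 6409 CPM (6390 to 6429). With each cell thinned to 5000 UMIs they held 0.661% of the UMIs in adherent and 0.524% in neurosphere cells. The median log2 fold change of the 48 genes, neurosphere over adherent, was −0.0001, against 0.32 for the 14654 genes with at least 50 UMIs. Of the 48 genes, 24 were above 0 and 24 below it. By the exact conditional 95% interval of 2 Poisson counts, which covers counting error only, 20 were higher in neurosphere cells, 22 were lower and 6 had an interval that held 0, where 56.2% of all genes were higher and 29.5% lower. Over 2-fold higher were 2 genes, Fam83d and Depdc1b, where 21.7% of all genes were over 2-fold higher. Over 2-fold lower were 2 genes, Anln and Cdkn3, where 11.7% of all genes were over 2-fold lower. So the list had a smaller share of genes past 2-fold in both directions than the whole set of genes.

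The direction of many genes rested on the scaling and on the cells compared. With TMM scaling, which put the median of all genes at 0.11, the median of the 48 genes was −0.22 and 17 of them were above 0, with Cdk1, Ccnf, Pttg1, Spc25, Kif2c, Nusap1 and Troap turned below it. With the total taken over mitochondrial and ribosomal genes too, which put the median of all genes at 0.54, it was 0.22 and 34 were above 0, with Aurka, Birc5, Cdca8, Bub1, Bub1b, Cdca3, Cenpe, Knstrn, Aspm and Top2a turned above it. Either scaling moves every gene by the same amount, so that the median of the 48 genes minus that of all genes, −0.32, was the same by construction. The sum of the 48 genes, lower in neurosphere cells in the main result (log2 ratio −0.13), moves likewise and is higher there with the larger total. In cells with 8000 to 16000 UMIs in both libraries, the median of the 48 genes was −0.67 and 41 of them were below 0. The median of all genes was 0.37 there, so that most of all genes were above 0. This range was chosen after the data were seen. As described further on, it leaves out most adherent cells with few mitosis genes and most neurosphere cells with many. The values of that range close each group below.

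**Figure D1:**
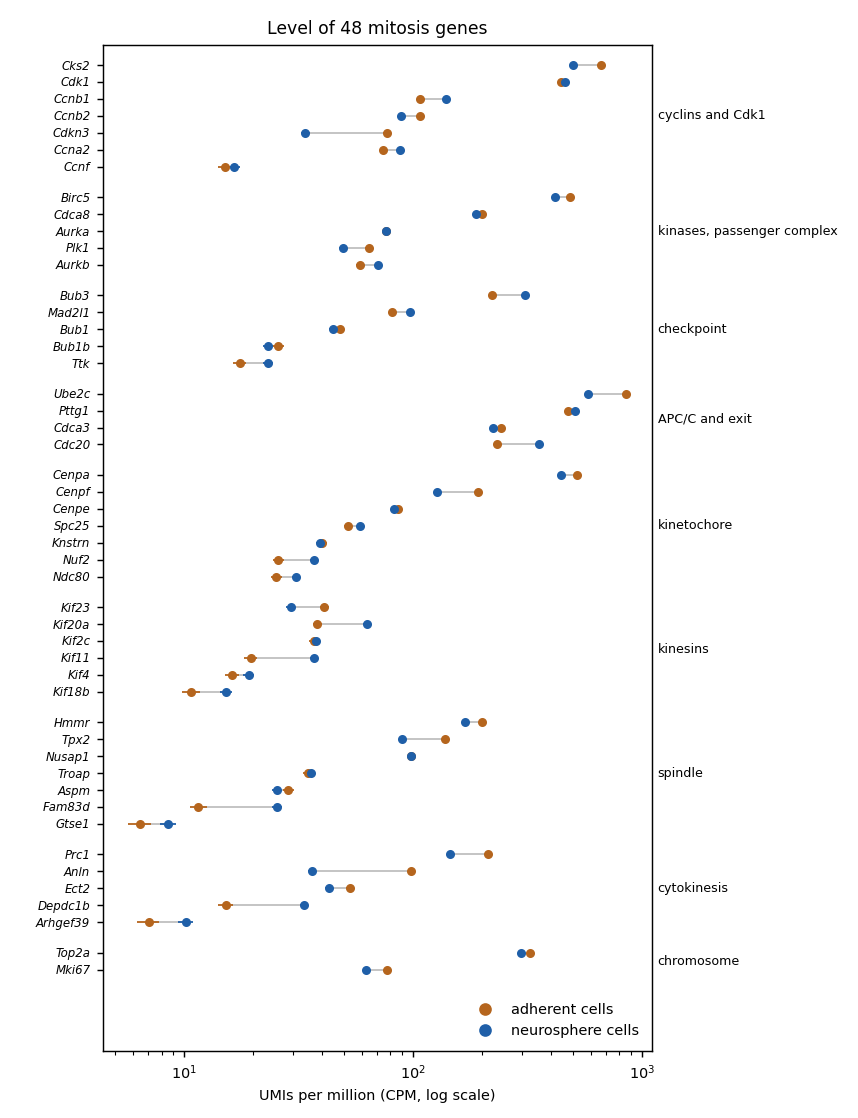
Level of each of the 48 mitosis genes, by role, in CPM on a log axis. Points are the 1 library of adherent and the 1 library of neurosphere cells, bars are exact Poisson 95% intervals of counting error and grey lines join the 2 libraries. Anln and Cdkn3 lie furthest apart to the left, and Fam83d and Depdc1b furthest apart to the right, in neurosphere cells.

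The levels below are in CPM from a 3′ protocol, in which 1 UMI stands for 1 molecule whatever its length, so that they were not divided by length. All 48 genes are annotated as protein-coding in GENCODE M21 on GRCm38, and in it 9 of them overlap another gene on the same strand and 18 overlap a gene on the opposite strand, so that their UMIs may hold a part from that gene. The genes that differed most lie on chromosome 9 from 22332012 to 22389188 (Anln), chromosome 14 from 46760541 to 46771669 (Cdkn3), chromosome 2 from 158768093 to 158786637 (Fam83d) and chromosome 13 from 108316332 to 108407782 (Depdc1b), and of these Anln overlaps the gene Gm48646 on its own strand. Ube2c lies on chromosome 2 from 164769898 to 164778822 and Cdc20 on chromosome 4 from 118432901 to 118437352, each with a gene on the opposite strand. Over the 48 genes the levels ran from 6.42 to 856 CPM in adherent cells and from 8.55 to 582 CPM in neurosphere cells, with a median of 75.5 and 62.8 CPM. The 8 highest genes held 57.4% of the UMIs of the list in adherent and 56.0% in neurosphere cells, and 6 of the 8 were the same: Ube2c, Pttg1, Cks2, Cdk1, Cenpa and Birc5. Top2a and Cdca3 completed the 8 in adherent cells, and Cdc20 and Bub3 in neurosphere cells.

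Among the cyclins and the partners of Cdk1, Cdk1 itself, the kinase that starts mitosis, was at 446 CPM in adherent against 462 CPM in neurosphere cells (log2 fold change 0.05, 0.02 to 0.08). The log2 fold change turned to −0.17 with TMM scaling and to −0.15 in cells thinned to equal depth. Ccnb1, the cyclin that Cdk1 needs for entry into mitosis, was at 108 and 139 CPM (0.37, 0.32 to 0.42), while its relative Ccnb2 was at 108 and 88.8 CPM (−0.28, −0.33 to −0.22). The B-type cyclins, equal in adherent cells, thus lay on opposite sides in the whole neurosphere library, but not in cells with 8000 to 16000 UMIs. Ccna2, the cyclin of S phase and G2, was at 74.3 and 88.2 CPM (0.25, 0.19 to 0.31), and Ccnf at 15.2 and 16.6 CPM with an interval that held 0. Cks2, a small subunit of the Cdk1 complex, was at 667 and 501 CPM (−0.42, −0.44 to −0.39). Cdkn3, a phosphatase that dephosphorylates CDKs, was at 76.9 CPM (74.4 to 79.5) in adherent against 34.01 CPM (32.6 to 35.5) in neurosphere cells (log2 fold change −1.18, −1.25 to −1.10). It was the member of this group with the largest difference, and it stayed lower in neurosphere cells under every scaling and cell filter tried. With the total that includes mitochondrial and ribosomal genes its log2 fold change was −0.96, no longer past 2-fold. All 7 genes were lower in cells with 8000 to 16000 UMIs, with Cdk1 at −0.75, Ccnb1 at −0.58, Ccnb2 at −0.49, Ccna2 at −0.42, Ccnf at −0.71, Cks2 at −0.92 and Cdkn3 at −1.49.

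Among the mitotic kinases and the chromosomal passenger complex, which corrects faulty attachments at the centromere, Birc5 (survivin) was highest, at 485 CPM in adherent against 420 CPM in neurosphere cells (−0.21, −0.23 to −0.18). Cdca8 (borealin) was at 200 and 188 CPM (−0.09, −0.13 to −0.05), and the catalytic subunit Aurkb at 59.0 and 70.3 CPM (0.25, 0.18 to 0.32). With the total that includes mitochondrial and ribosomal genes Birc5 and Cdca8 turned to 0.01 and 0.13. Aurka, the kinase of the spindle poles, was at 76.7 and 76.5 CPM with an interval that held 0. Plk1, which acts from entry to cytokinesis, was at 64.5 and 49.6 CPM (−0.38, −0.45 to −0.31). All 5 were lower in cells with 8000 to 16000 UMIs, with Birc5 at −0.78, Cdca8 at −0.66, Aurkb at −0.59, Aurka at −0.80 and Plk1 at −1.14.

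Among the spindle checkpoint genes, Bub3 stood out by its level, at 223 CPM in adherent against 309 CPM in neurosphere cells (0.47, 0.43 to 0.50). Mad2l1, which with Bub1b holds Cdc20 back, was at 81.3 and 97.4 CPM (0.26, 0.20 to 0.32), and the kinase Ttk, which starts the checkpoint signal, at 17.5 and 23.4 CPM (0.42, 0.29 to 0.54). The kinase Bub1 and its relative Bub1b were slightly lower in neurosphere cells, at 48.3 and 44.7 CPM and at 25.9 and 23.4 CPM, and both turned higher, to 0.11 and 0.07, with the total that includes mitochondrial and ribosomal genes. The group had a median of 0.26, below the 0.32 of all genes, and of 0.04 in cells thinned to equal depth. In cells with 8000 to 16000 UMIs Bub3 was at 0.03, Ttk at −0.11, Mad2l1 at −0.15, Bub1 at −0.73 and Bub1b at −0.83.

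Among the genes of the APC/C and of mitotic exit, the 2 largest differences were opposite. Ube2c, the ubiquitin-conjugating enzyme of the APC/C, was the highest of the 48 genes in both libraries, at 856 CPM (847 to 864) in adherent against 582 CPM (576 to 587) in neurosphere cells (log2 fold change −0.56, −0.58 to −0.54). Cdc20, the activator that brings substrates to the APC/C, was at 233 CPM (229 to 238) and 356 CPM (351.5 to 361) (log2 fold change 0.61, 0.58 to 0.64). Pttg1 (securin), which the APC/C destroys to release sister chromatids, was at 475 and 512 CPM (0.11, 0.08 to 0.13) and turned to −0.11 with TMM scaling. Cdca3, a trigger of entry into mitosis, was at 242 and 224 CPM (−0.11, −0.15 to −0.08) and turned to 0.11 with that larger total. The difference of Cdc20 was nearly gone in cells with 8000 to 16000 UMIs, at 0.08, while Ube2c was at −1.646, Pttg1 at −0.21 and Cdca3 at −0.44.

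Among the kinetochore genes, the centromeric histone Cenpa was at 523 and 446 CPM (−0.23, −0.25 to −0.20), and Cenpf, a large protein of the outer kinetochore, at 192 and 128 CPM (−0.59, −0.63 to −0.54). The 3 subunits of the NDC80 complex on the list, which binds microtubules, were all higher in neurosphere cells, as were 9406 of the 14654 genes: Nuf2 was at 25.9 and 37.2 CPM (0.52), Ndc80 at 25.4 and 31.0 CPM (0.29) and Spc25 at 52.3 and 58.8 CPM (0.17, which turned to −0.05 with TMM scaling). Ndc80 and Spc25 lay below the median of all genes, 0.32. The motor Cenpe was at 86.1 and 82.6 CPM and Knstrn at 40.3 and 39.5 CPM, with log2 fold changes of −0.06 and −0.03. The NDC80 subunits were not all higher in cells with 8000 to 16000 UMIs, with Nuf2 at 0.01, Ndc80 at −0.08 and Spc25 at −0.28, and Cenpa was at −0.68, Cenpf at −1.56, Cenpe at −0.86 and Knstrn at −0.37.

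The kinesins had a median of 0.38, near the 0.32 of all genes, with 5 of 6 above 0, as were 9406 of the 14654 genes. Kif11, which pushes the spindle poles apart, was at 19.6 CPM (18.4 to 21.0) in adherent against 37.2 CPM (35.7 to 38.7) in neurosphere cells (log2 fold change 0.92, 0.81 to 1.03). Kif20a, which carries the passenger complex to the midzone, was at 38.3 and 62.9 CPM (0.71, 0.63 to 0.80), and Kif18b, which trims astral microtubules, at 10.8 and 15.3 CPM (0.51, 0.35 to 0.66). Kif23, a subunit of centralspindlin in the midzone, went the other way, at 41.1 and 29.4 CPM (−0.48, −0.57 to −0.39). Kif4, a chromokinesin, was at 16.2 and 19.2 CPM, and Kif2c, which takes microtubules apart at the centromere, at 36.9 and 37.9 CPM with an interval that held 0. In cells with 8000 to 16000 UMIs only Kif20a (0.28) and Kif11 (0.14) of the 6 were above 0, with Kif18b at −0.0013, Kif4 at −0.44, Kif2c at −0.72 and Kif23 at −1.30.

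Among the other spindle genes, Fam83d, which positions the spindle through casein kinase 1, was at 11.6 CPM (10.6 to 12.6) in adherent against 25.6 CPM (24.4 to 26.9) in neurosphere cells (log2 fold change 1.15, 1.00 to 1.29). Its log2 fold change was the highest of the 48 genes, and was 0.93 with TMM scaling. Tpx2, the activator of Aurora A on the spindle, was at 139 and 89.6 CPM (−0.63, −0.68 to −0.58), and Hmmr at 201 and 169 CPM (−0.25, −0.29 to −0.21). Nusap1 was at 98.4 and 98.7 CPM and Troap at 35.0 and 35.9 CPM, with intervals that held 0. Aspm was at 28.6 and 25.5 CPM, and Gtse1, the lowest of the 48 genes, at 6.42 and 8.55 CPM. The group had a median of 0.00. Only Fam83d, at 0.63, was above 0 in cells with 8000 to 16000 UMIs, with Tpx2 at −1.24, Hmmr at −1.04, Aspm at −0.91, Nusap1 at −0.77, Troap at −0.66 and Gtse1 at −0.15.

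The cytokinesis genes were the most spread, from −1.44 to 1.14. Anln (anillin), the scaffold of the contractile ring, was at 98.3 CPM (95.5 to 101.2) in adherent against 36.3 CPM (34.8 to 37.8) in neurosphere cells (log2 fold change −1.44, −1.51 to −1.37). Its log2 fold change was the lowest of the 48 genes and stayed so under every scaling and cell filter tried, between −2.18 and −1.22. Depdc1b was at 15.3 CPM (14.2 to 16.4) and 33.6 CPM (32.2 to 35.1) (log2 fold change 1.14, 1.02 to 1.26, and 0.92 with TMM scaling). Prc1, which bundles the microtubules of the midzone, was at 214 and 145 CPM (−0.56, −0.60 to −0.52), and Ect2, the activator of RhoA at the cell equator, at 53.1 and 43.0 CPM (−0.30, −0.38 to −0.22). Arhgef39 was at 7.02 and 10.2 CPM (0.54, 0.35 to 0.74). Of the 2 chromosome genes, Top2a, which untangles sister chromatids, was at 327 and 296 CPM (−0.14, −0.17 to −0.11), and Mki67, which coats mitotic chromosomes, at 77.2 and 62.7 CPM (−0.30, −0.37 to −0.24). With the total that includes mitochondrial and ribosomal genes Top2a turned to 0.08. In cells with 8000 to 16000 UMIs Depdc1b was at 0.56, Arhgef39 turned to −0.18, and Anln was at −2.18, Prc1 at −1.46, Ect2 at −0.91, Top2a at −0.87 and Mki67 at −0.998.

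A level in CPM does not say whether few cells hold many molecules or many cells hold few, and the libraries differed there. Since neurosphere cells held more UMIs per cell, each cell was thinned to 5000 UMIs, which left 4464 adherent and 4196 neurosphere cells and left out 587 and 80 shallower ones. In thinned cells, the share of cells with a UMI was lower in neurosphere cells for 31 of the 48 genes, with exact binomial 95% intervals apart, where 23.1% of all genes were lower by the same rule. It was higher for 6 genes, Bub3, Kif11, Kif18b, Kif20a, Fam83d and Depdc1b, where 46.4% of all genes were higher. The intervals of the other 11 overlapped. The median share over the 48 genes was 26.1% in adherent cells and 19.2% in neurosphere cells. Of the 31 genes, 24 also had a lower level in CPM, and for the other 7 (Cdk1, Ccnb1, Cdc20, Pttg1, Kif2c, Nusap1 and Troap) share and level went in opposite directions, so that no order between the cultures is read from their shares. In thinned cells the level was lower for 29 of the 31, all but Ccnb1 and Cdc20.

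**Figure D2:**
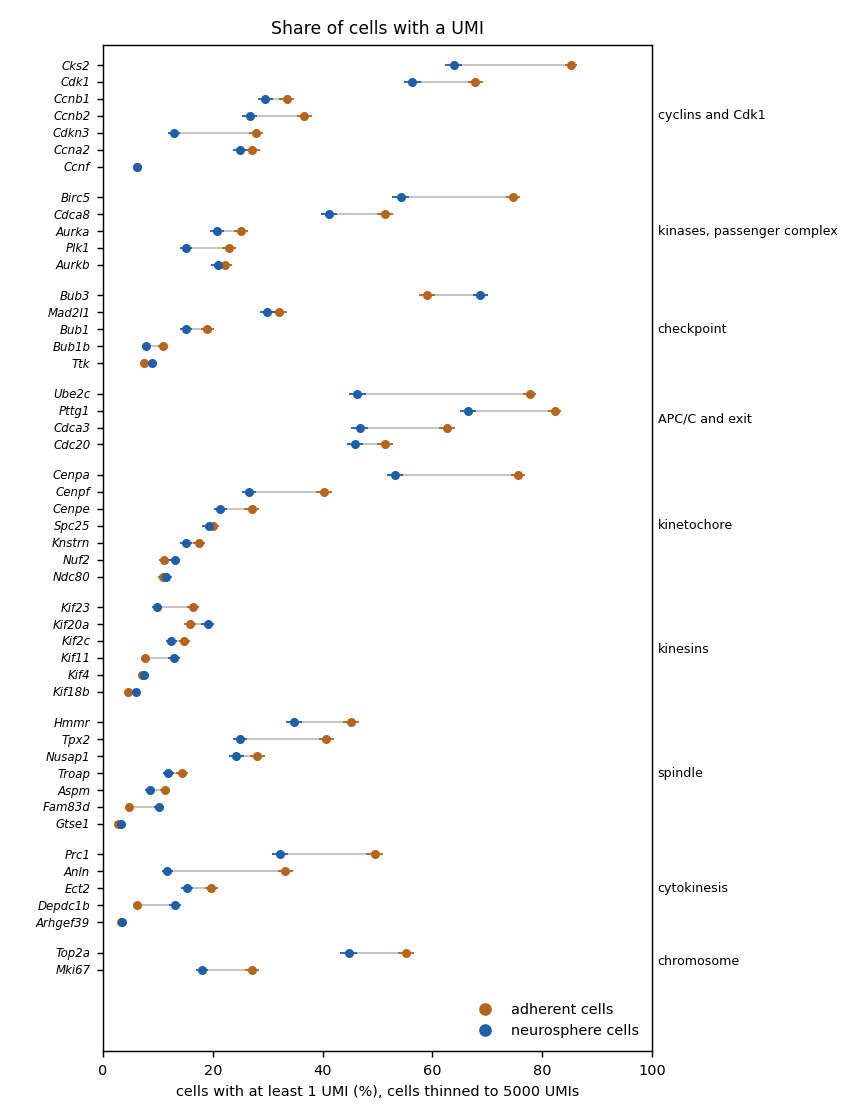
Share of cells with at least 1 UMI of each gene, in percent, after each cell was thinned to 5000 UMIs, in 4464 adherent and 4196 neurosphere cells of 1 library each. Points are shares, bars are exact binomial 95% intervals of counting error. For Ube2c, Cks2, Cenpa and Birc5 the neurosphere point lies over 20 percentage points to the left, and for Bub3 it lies to the right.

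Of the 11 genes with a UMI in over 50% of thinned adherent cells, 4 had a share over 20 percentage points lower in neurosphere cells. Ube2c had a UMI in 77.7% (76.5 to 78.9%) of thinned adherent and 46.3% (44.8 to 47.9%) of thinned neurosphere cells, and in 80.6% and 57.9% of all kept cells before thinning. Cks2 was in 85.3% and 63.8% of thinned cells (89.8% and 77.1% before thinning), and Cenpa in 75.5% and 53.2% (81.5% and 64.1% before). Birc5 was in 74.6% and 54.2% (77.9% and 63.0% before). Of the other 7, Pttg1 was in 82.3% and 66.5% of thinned cells (88.02% and 77.1% before), Cdca3 in 62.6% and 46.8% (74.3% and 61.6% before) and Cdk1 in 67.8% and 56.3% (72.1% and 68.5% before). Top2a was in 55.2% and 44.8% (61.9% and 57.8% before), Cdca8 in 51.4% and 41.2% (62.0% and 57.2% before) and Cdc20 in 51.4% and 45.9% (60.4% and 59.5% before). The cultures lay nearer to each other for these 6 genes, and Bub3 went the other way. Anln was in 33.2% and 11.7% (47.1% and 29.9% before) and Cdkn3 in 27.9% and 12.9% (41.4% and 29.5% before). Higher in neurosphere cells, Bub3 was in 59.0% and 68.7% (71.2% and 87.5% before), Fam83d in 4.66% and 10.2% (8.71% and 24.98% before) and Depdc1b in 6.14% and 13.1% (11.8% and 29.2% before).

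A lower share together with a lower level was found for 22.9% of all genes. By role, the 24 of the 48 genes with both were 3 of 7 genes of the cyclin and Cdk1 group, 4 of 5 kinase and passenger genes, 2 of 4 APC/C and exit genes, 4 of 7 kinetochore genes, 3 of 7 spindle genes, 3 of 5 cytokinesis genes and both chromosome genes. They also held 2 of 5 checkpoint genes and 1 of 6 kinesins. The level part of this count rested on the scaling. The share part was taken in cells thinned after mitochondrial and ribosomal genes were removed, and thinning with those genes kept was not run. With TMM scaling both parts were met by 29 of the 48 genes, and with the total that includes mitochondrial and ribosomal genes by 14, among them 1 of 5 kinase and passenger genes, 0 of 5 checkpoint genes and 3 of 7 genes of the cyclin and Cdk1 group. The shares of all genes that met both under these scalings were not counted. The share alone was higher for 3 of 6 kinesins, near the 46.4% of all genes.

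In the cells that held a UMI, the level differed less than the share. For most genes the mean was near 1 UMI, the least a positive cell can have, so that it was compared only for the 18 genes with a mean of at least 1.5 UMIs in either library. Of these, 11 had a higher and 7 a lower mean in positive neurosphere cells, with a median log2 ratio of 0.02, near the 55.1% and 44.1% of the 1838 genes with such a mean, while 12 of the 18 had a lower share and a lower level in CPM. Ube2c was at 4.94 UMIs per positive adherent cell and 4.61 per positive neurosphere cell, Cenpa at 3.34 and 3.37, and Birc5 at 3.09 in both. For these 3 genes the positive cells of both cultures thus held much the same number of molecules per 5000. Cks2, whose share was also much lower in neurosphere cells, was at 3.70 and 3.24 UMIs. Cdc20 differed the most, with 2.24 UMIs per positive adherent and 3.26 per positive neurosphere cell. A Cdc20 count of at least 5 UMIs occurred in 4.95% of thinned adherent and 11.6% of thinned neurosphere cells, although the share of cells with any Cdc20 UMI was 51.4% and 45.9%. Ccnb1, at 1.54 and 1.89 UMIs, and Pttg1, at 2.82 and 3.30, were the next in order of the log2 ratio among the higher ones, and Cenpf, at 2.17 and 1.81, and Prc1, at 2.05 and 1.78, were among the lower ones.

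**Figure D3:**
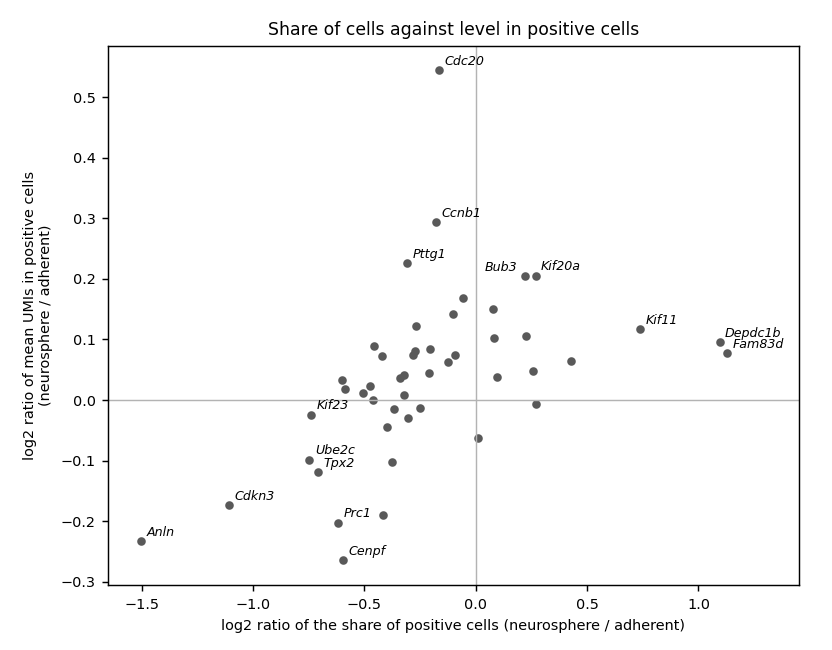
Log2 ratio, neurosphere over adherent, of the share of cells with a UMI (horizontal axis) and of the mean UMIs in those cells (vertical axis) for the 48 genes, 1 point each, in cells thinned to 5000 UMIs. Most points lie left of 0, few lie over 0.2 from 0 in height, Cdc20 lies highest, Anln and Cdkn3 lie far left and Fam83d, Depdc1b and Kif11 far right.

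Counted per cell, the 48 genes split the neurosphere cells more widely than the adherent cells. A thinned adherent cell held a UMI of a median of 15 of the 48 genes and a thinned neurosphere cell of 10. The upper ends were alike, with a 75th percentile of 21 and 20 genes and a 95th percentile of 28 in both. The lower ends were not, with a 25th percentile of 9 and 3 genes and a 5th percentile of 4 and 1. At most 3 genes were found in 201 adherent cells, 4.50% (exact binomial 95% interval 3.91 to 5.15%), and in 1171 neurosphere cells, 27.9% (26.6 to 29.3%), with 232 and 593 cells at 3 or 4 genes, near the limit. None of the genes was found in 2 adherent and 97 neurosphere cells. At least 10 genes occurred in 72.0% (70.7 to 73.4%) of the adherent and in 51.7% (50.2 to 53.2%) of the neurosphere cells, with 388 and 204 cells at 9 or 10 genes. At least 20 genes were found in 28.6% (27.3 to 29.98%) and 26.0% (24.7 to 27.4%), shares that were close and whose intervals overlapped. These limits mark ranges of a count, not cell types or phases of the cycle.

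**Figure D4:**
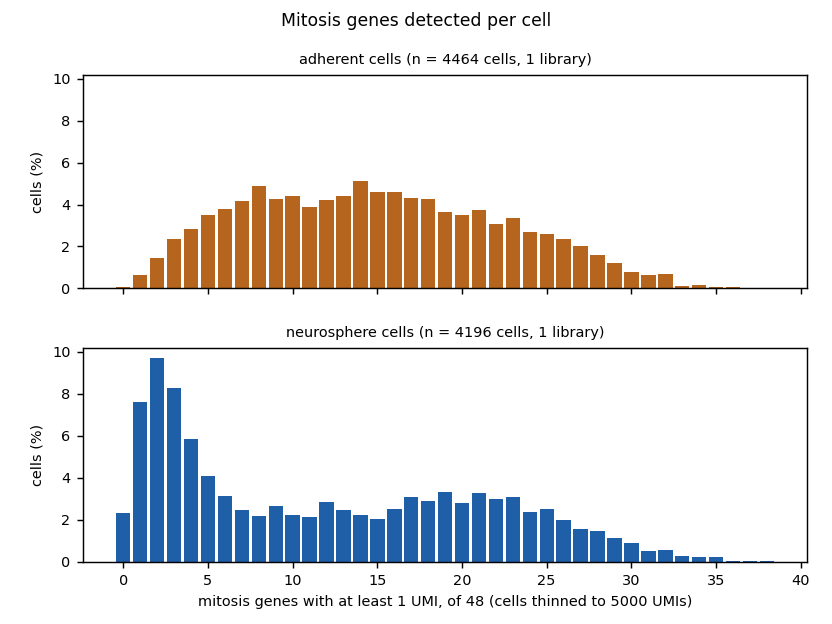
Number of the 48 mitosis genes with a UMI per cell, in cells thinned to 5000 UMIs, as a percent of 4464 adherent cells (top) and 4196 neurosphere cells (bottom). Adherent cells form a broad hump around 14 genes, and neurosphere cells have a peak at 2 genes (9.70% of cells) and a low, broad shoulder near 20 genes.

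The UMIs of the list were accordingly more concentrated in neurosphere cells. The 10% of cells with the most UMIs of the 48 genes held 25.1% of them in adherent and 31.3% in neurosphere cells. The mean was 33.0 UMIs per thinned adherent cell and 26.2 per thinned neurosphere cell, but 42.2 and 45.9 in the cells with at least 10 genes. Within those cells the median log2 fold change of the 48 genes was 0.27, with 31 genes higher, 8 lower and 9 with an interval that held 0, where 47.2% of all genes were higher and 24.1% lower in the same cells. Depdc1b (1.54), Fam83d (1.36) and Kif11 (1.29) were over 2-fold higher there and Anln (−1.24) over 2-fold lower, where 21.2% and 13.1% of all genes were. Cdkn3 was at −0.77, Ube2c at −0.34 and Cdc20 at 0.85. These cells were chosen by the same 48 genes, so that the values describe them and give no separate check of a direction.

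The cells with the fewest mitosis genes were then taken from each culture. For each gene, cells were ranked by the summed UMIs of the other 47 and the lowest 25% were taken, 1116 adherent and 1049 neurosphere cells. As the limit was set within each culture, and the 25th percentile of the summed UMIs of all 48 genes was 14 in adherent and 4 in neurosphere cells, lower shares of most genes in neurosphere cells follow from the choice of cells, and the values only describe them. The share of these cells with a UMI was lower in neurosphere cells for 45 of the 48 genes, with intervals apart for 35, where 18.8% of all genes were lower by that rule and 34% higher with cells ranked by all 48. The median share was 5.11% in adherent and 1.53% in neurosphere cells. In these cells Pttg1 was still in 66.9% of adherent cells and 30.1% of neurosphere cells, Cks2 in 66.0% and 27.1%, Cenpa in 49.0% and 10.7% and Ube2c in 44.2% and 8.39%. Hmmr, in 45.1% and 34.7% of all thinned cells (54.2% and 48.5% before thinning), was in 6.27% and 0.477% of the lowest 25%. The lowest 25% of adherent cells thus kept UMIs of the most abundant mitosis genes. Hmmr was in few of them, but genes at a like level in adherent cells varied. Cenpf was in 8.24% of them, Cdca8 in 13.9%, Cdc20 in 15.3%, Prc1 in 29.6%, Cdca3 in 34.5% and Bub3 in 50.6%. Free RNA from broken cells can add UMIs to any droplet, and since both libraries hold 1 cell line, no cell type that should lack these genes was at hand to measure it. The cells that the filter left out, 713 adherent and 675 neurosphere, held the 48 genes at 4913 and 3868 CPM. The part of free RNA in the shares was not tested.

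Bub3, Fam83d and Depdc1b were the 3 genes with a higher share in the lowest 25% of neurosphere cells. Bub3 was in 50.6% (47.7 to 53.6%) of adherent and 56.6% (53.6 to 59.6%) of neurosphere cells, with intervals that met, and Depdc1b in 2.96% and 4.67% with overlapping intervals. Fam83d was in 0.0896% (0.00227 to 0.498%) of adherent cells, 1 cell of 1116, and in 5.43% (4.14 to 6.98%) of neurosphere cells. So Fam83d was found in neurosphere cells that held few other mitosis mRNAs, and in next to none of the lowest 25% of adherent cells. In the highest 25% of cells the cultures were nearer to each other, with a median share of 46.9% and 43.5%. By intervals apart 12 genes were lower and 12 higher, where 15% of all genes were lower and 30.4% higher. The 12 higher ones were Ccnb1, Bub3, Mad2l1, Ttk, Cdc20, Nuf2, Kif11, Kif18b, Kif20a, Gtse1, Fam83d and Depdc1b. The 12 lower ones were Cks2, Cdkn3, Plk1, Bub1b, Ube2c, Cenpf, Kif23, Tpx2, Prc1, Anln, Top2a and Mki67.

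Cells with few mitosis genes differed in other readouts, and more so in neurosphere cells. In neurosphere cells the median UMI total before thinning was 8837 in cells with 0 to 3 genes, 11988.5 with 4 to 9, 16294.5 with 10 to 19 and 17971 with 20 or more, against 7131, 7527, 8851 and 10460 in adherent cells. The median share of mitochondrial UMIs in the same order was 4.72%, 4.13%, 3.64% and 3.47% in neurosphere cells, and between 1.94% and 2.07% in adherent cells. The summed UMIs of 34 S-phase genes averaged 5.53, 14.2, 22.6 and 18.4 per neurosphere cell and 6.86, 10.6, 13.995 and 11.5 per adherent cell. In both cultures they were thus lowest in cells with the fewest mitosis genes and highest in cells with 10 to 19 of them. Btg2, an antiproliferative gene, averaged 2.25, 1.42, 0.448 and 0.464 UMIs per neurosphere cell, and between 0.124 and 0.227 per adherent cell. Cdkn2c (p18), an inhibitor of CDK4 and CDK6, went the other way, from 0.203 UMIs in neurosphere cells with 0 to 3 mitosis genes to 0.538 in those with 20 or more. Cdkn1a (p21) lay between 1.12 and 1.51 UMIs in both cultures, highest in cells with 0 to 3 mitosis genes and lowest in those with 10 to 19. Depth and mitochondrial share moved with the number of mitosis genes, and their part in these differences was not tested.

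**Figure D5:**
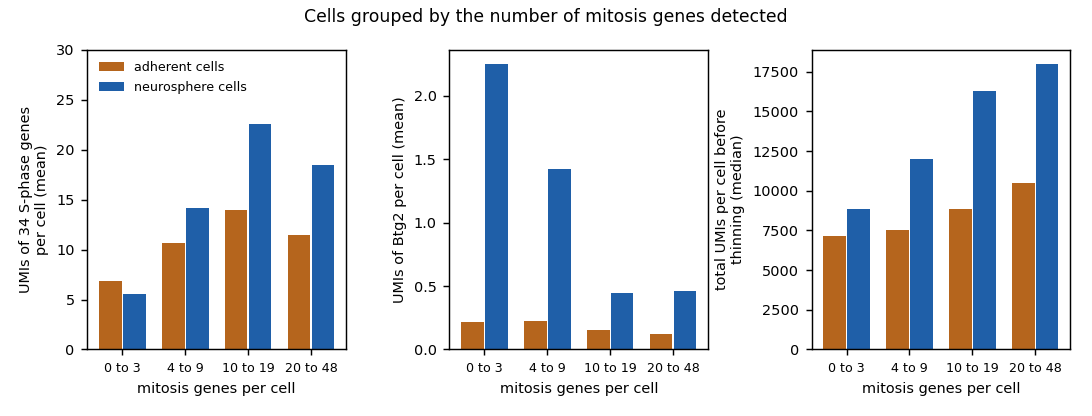
Mean UMIs per cell of 34 S-phase genes (left) and of Btg2 (middle), both in cells thinned to 5000 UMIs, and median total UMIs per cell before thinning (right), for cells grouped by the number of the 48 mitosis genes detected. Bars are 1 library of adherent and 1 library of neurosphere cells each. Btg2 is highest, at 2.25 UMIs, in neurosphere cells with 0 to 3 mitosis genes, where total UMIs are lowest.

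Because total UMIs were higher in cells with more mitosis genes, the counts were repeated in cells with 8000 to 16000 UMIs in both libraries, a window chosen after the data were seen, which held 2325 adherent and 1959 neurosphere cells after thinning. There at most 3 genes occurred in 2.24% of the adherent and in 30.7% of the neurosphere cells, and at least 10 in 80.3% and 44.0%. The median log2 fold change of the 48 genes was −0.67, against 0.37 for 13104 genes, with 41 of the 48 below 0. Over 2-fold lower were 9, Anln, Cdkn3, Cenpf, Hmmr, Kif23, Plk1, Prc1, Tpx2 and Ube2c, where 10.6% of all genes were over 2-fold lower. The window did not match the totals fully, with a median of 10247 UMIs in adherent and 11524 in neurosphere cells. Within it the gap in the number of genes per cell was wider than over all thinned cells. Of the 24 genes above 0 in the whole libraries, 17 were below it in this window. The 7 that stayed above 0 were Fam83d, Depdc1b, Kif20a, Kif11, Cdc20, Bub3 and Nuf2. Since the total moved with the number of mitosis genes, a window on the total also selects on that number, and not alike in both cultures. Its lower limit lay above the median total of adherent cells with 0 to 3 and 4 to 9 genes, 7131 and 7527 UMIs. Its upper limit lay below that of neurosphere cells with 10 to 19 and 20 or more, 16294.5 and 17971 UMIs. It thus left out most adherent cells of the former kind and most neurosphere cells of the latter. The part of this in the lower values was not tested. Doublets, which can raise the total, were not removed. Without the cells over the 95th percentile of UMIs, which stand in for doublets, at most 3 genes were found in 29.6% of neurosphere cells.

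Across cells, the genes followed each other more closely in neurosphere cells. The correlation of a gene with the summed other members (Pearson r of log counts over the thinned cells of 1 library, which share that library and its depth) had a median of 0.30 in adherent and 0.40 in neurosphere cells, and was higher in neurosphere cells for 44 of 48 genes. It was lowest for the rare Gtse1, at 0.10 and 0.18, and highest for Ube2c (0.72) in adherent and Birc5 (0.78) in neurosphere cells. Bub1b, Ube2c, Cenpf and Fam83d were the 4 genes that were not higher. How many of all genes had a higher r with this sum in neurosphere cells was not counted. The rise is therefore not shown to be particular to the 48 genes. Over the 1128 pairs the median r was 0.13 and 0.20, and the highest pair was Cdk1 with Top2a (0.55) in adherent and Cdc20 with Cenpa (0.66) in neurosphere cells. With the summed S-phase genes the median r was 0.03 in adherent and 0.22 in neurosphere cells. Cdk1, Birc5 and Top2a had the highest of these, at 0.20, 0.15 and 0.19 in adherent and at 0.52, 0.50 and 0.50 in neurosphere cells.

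Of the genes outside the list, Hmgb2, a chromatin protein of dividing cells, followed the sum of the 48 genes best in both libraries, at r = 0.66 over 4464 adherent and 0.85 over 4196 neurosphere cells. It was at 1066 and 1940 CPM. In adherent cells Arl6ip1 (0.53), the tubulins Tubb4b (0.50) and Tubb5 (0.42), and Jpt1 (0.41) came next. In neurosphere cells the histone variant H2afz (0.71), Cks1b (0.65), the PCNA-associated factor Pclaf (0.61) and Tubb5 (0.60) came next.

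The other genes of mitosis and of the cell cycle, given as lists of symbols, lay higher than the 48 genes. Of 103 other mitosis genes, 102 had at least 50 UMIs and a median log2 fold change of 0.30, near the 0.32 of all genes, with 5 over 2-fold higher and 2 over 2-fold lower, against 21.7% and 11.7% of all genes. Their share of thinned cells was lower for 26 and higher for 42, near the 23.1% and 46.4% of all genes. The highest were Ska2 (1.17) and Zwint (1.13), both of the kinetochore, and Lin54 (1.12), the MuvB subunit that binds the CHR element. The lowest were Psrc1 (−2.01), Mybl2 (−1.57) and Arpp19 (−0.74). Of the transcription factors that work with MuvB on mitosis genes, Mybl2 (B-Myb) was at 37.0 CPM in adherent against 12.5 CPM in neurosphere cells, and Foxm1 at 21.5 and 24.6 CPM (0.19, 0.08 to 0.31). The log2 fold change of Mybl2 thus lay below that of all 48 genes.

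The 34 S-phase genes had a median of 0.62, and 29 of them were above 0, as were 9406 of the 14654 genes. Over 2-fold higher were 6 and lower 0, where 21.7% and 11.7% of all genes were. Mcm2, a subunit of the replicative helicase, was at 22.6 and 86.2 CPM (1.93), Ccne2 at 6.61 and 23.3 CPM (1.82) and the flap nuclease Fen1 at 26.2 and 90.3 CPM (1.78). Pola1 (−0.23), Dut (−0.12) and Chaf1b (−0.09) were the lowest. Of the 14 CDK inhibitors and related genes, with a median of 0.49, 4 were over 2-fold higher and 1 lower, against the same 21.7% and 11.7%. Btg2 was at 32.0 and 184.6 CPM (2.53), Cdkn2c at 15.9 and 68.2 CPM (2.10) and Cdkn1c at 0.626 and 1.77 CPM (1.499). Cdkn2b (p15) was at 93.3 and 27.8 CPM (−1.74), Cdkn2a at 775 and 502 CPM (−0.63) and Cdkn1b (p27) at 28.7 and 26.5 CPM (−0.12).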

How the data were processed

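The scRNA-Seq libraries, 1 of adherent and 1 of neurosphere GL261 cells, followed a 3′ v3 protocol of 10x Genomics. The authors deposited the raw UMI count of every gene in each cell called by Cell Ranger, neither normalized nor passed through their own quality control. The submitters' processing notes name Cell Ranger 7.0.1 and the mm10 build. The annotation release and the setting for intronic reads are not given in the sources used here. The called cells numbered 5764 and 4951, with 68531063 and 82832873 UMIs, and 12 barcodes occurred in both libraries.

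By the limits in the methods of the study, 13 mitochondrial and 101 ribosomal genes were removed, then cells under 1000 UMIs or under 1250 (adherent) or 2250 (neurosphere) genes, so that the gene minimum differed between the cultures. With the cell filter first and the genes removed after it, 5073 and 4300 cells were left, which is the number of cells the study worked with, against 5051 and 4276 in the order used here. Filtering cells first changed the direction of 0 of the 48 genes. The kept cells held 46290996 and 64943938 UMIs. Levels are CPM of the UMIs summed over a library's kept cells. As each culture had 1 library, no test was run and cells were not treated as replicates. Exact 95% intervals (Poisson for CPM, conditional for log2 fold changes, Clopper-Pearson binomial for shares) cover counting error only. For shares, genes per cell, levels in positive cells and correlations, each cell was thinned to 5000 UMIs with a fixed seed. The interval and the thinning were tested on simulated data. No doublets were removed.

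The 48 genes, their roles and the other lists (103 mitosis genes, 34 S-phase genes, 14 CDK inhibitors and related genes, 24 cell type markers) were chosen with earlier results of these data known. All 48 genes are accounted for, and of the other mitosis, S-phase and CDK inhibitor lists the 3 highest and 3 lowest log2 fold changes are named, with Foxm1 and Mybl2, and the 5 genes outside the list that followed its sum best in each library. Positions came from GENCODE M21 on GRCm38, where 32044 of the 32171 genes left were matched, including all 48. Promoter sequences came from RefSeq on GRCm38.p6. Alternatives covered the order of removal, the cell filter, doublets, scaling (TMM by edgeR 4.0.16 under R 4.3.3), weighting of cells, depth, gene length (loess, span 0.5), low counts and shared barcodes. The rest ran in Python 3.11.15 (scipy 1.17.1, numpy 2.4.6, statsmodels 0.14.6, pandas 2.3.3; figures by matplotlib 3.10.9).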

Additional observations from a re-analysis of the deposited data

How the results depend on the processing

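No paired analysis was possible because each culture gave 1 library. The median log2 fold change of the 48 genes, near 0 in the main result, was −0.22 with TMM scaling, 0.22 with the total taken over mitochondrial and ribosomal genes too, −0.19 as the mean of CPM over cells, −0.20 in cells thinned to 5000 UMIs and −0.67 in cells with 8000 to 16000 UMIs, a setting chosen after the data were seen. Its sign thus rests on scaling and depth. Minus the median of all genes it was −0.32, and −0.49 by the mean over cells, −0.55 in thinned cells, −0.25 with no minimum of UMIs per gene and −1.04 in the window of 8000 to 16000 UMIs, below 0 each time. Genes over 2-fold higher numbered 2, 3 with that larger total, 0 with TMM scaling, 1 with the gene length trend removed and 0 in the window. Genes over 2-fold lower numbered 2, 1 with that larger total and 9 in the window.

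Thinned to 3000 UMIs, in adherent and neurosphere cells in this order, the median number of genes per cell was 10 and 7, at least 10 genes were found in 54.2% and 42.1% of cells and at most 3 in 11.5% and 36.9%, the top 10% of cells held 26.0% and 31.9% of the UMIs, the median r was 0.25 and 0.33 and the median share 16.9% and 12.6%. Without the cells over the 95th percentile of UMIs, the top 10% held 25.7% and 32.3%, and at least 10 genes were found in 49.7% and at most 3 in 29.6% of neurosphere cells. In the window, at least 10 genes were found in 80.3% and 44.0%, at most 3 in 2.24% and 30.7%, the top 10% held 23.1% and 33.9%, the median share was 28.3% and 16.3%, the median neurosphere cell held 8 genes, and 1 gene had a higher share in neurosphere cells. How many of all genes had a higher share in the window was not counted. With at least 5 genes in place of 10 the shares of cells were 92.7% and 66.2%, and with at least 20 they were 28.6% and 26.0%. The cause of these shifts was not tested. The 587 adherent and 80 neurosphere cells under 5000 UMIs are outside all thinned values, and rare genes such as Gtse1 were near the level of 1 UMI in positive cells, so that their level per cell could not be compared at this depth.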
